A study of Homo sapiens with 6 samples.

Results

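CTSS and 9 further cathepsin genes (CTSA, CTSB, CTSC, CTSD, CTSH, CTSK, CTSL, CTSO and CTSZ) were examined by RNA-seq in U251, a human glioblastoma cell line. They were taken by gene symbol, and the 10 genes each held 1 of the 58735 rows of the expression table. The 10 genes, and CTSS among them, were selected on their FPKM values in the same 6 libraries, with the change between the groups already known. All values of the treatment contrast for these genes are therefore given as a description, with no p-value. The NC group (3 libraries) received sterile deionized water in the same volume as the treatment, and the TNF-α group (3 libraries) received recombinant human tumor necrosis factor-α at 10 ng/mL. Both groups were kept for 24 h in high-glucose DMEM with fetal bovine serum and antibiotics, and the labels describe the replicates of each group as independent biological ones. The comparison asked how this dose of the cytokine altered transcripts of the tumor cells, in a single cell line without immune or stromal cells.

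Cathepsins are proteases that mostly work in the acid interior of the endosome and lysosome, where they degrade proteins and trim precursors of other enzymes. They are made as inactive proenzymes, are carried to the lysosome largely through mannose 6-phosphate receptors, are activated by cleavage at low pH, and are held in check outside it by cystatins. CTSS differs from most of the papain-family cathepsins in staying active near neutral pH, and in antigen-presenting cells it trims the invariant chain of MHC class II molecules. In glioma, secreted cathepsins are known for cleaving extracellular matrix.

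Levels are given as FPKM, fragments divided by gene length and by a library size, which allows genes of different length to be compared. The number of fragments, called reads below, was recovered from FPKM as whole numbers, and the libraries held 31992167 to 37897044 reads in genes. TNF-α replicates 2 and 3 stood apart from the other 4 libraries. In this pair, genes longer than 8 kb held 16.6 to 17.9% of the reads and ribosomal protein genes 6.26 to 7.30%. The remaining libraries had 28.8 to 29.1% and 2.62 to 2.90%. The library size used in their FPKM was 0.693 to 0.759 of their reads in genes, against 0.925 to 0.959 in the other 4. The cathepsins are therefore also given per library and as TPM, which is FPKM rescaled to the same sum in every library. Of 10 markers of astrocytic glioma cells, 8 reached the level needed for testing, and AQP4 had 0 reads in every library. Of these 8, 4 had a log2 difference above 0. GFAP, the astrocyte intermediate filament, passed the threshold with a log2 change of -1.54 (SE 0.18, limma adjusted p = 0.0210). It was at -1.83 with TNF-α replicate 1 as the only treated library, and passed in 12 of 19 alternatives. GFAP shares 18.4% of its exonic bases with genes on the opposite strand. VIM, the intermediate filament vimentin, named after its values were seen, was at 325, 341 and 362 FPKM in NC and 434, 974 and 850 FPKM in TNF-α and did not pass. Of 12 microglia and macrophage markers none reached the level needed for testing. PTPRC, TYROBP, C1QA and C1QB had 0 reads in every library. The summed level of the 12 was 1.18 to 1.32 FPKM in NC and 0.751 to 1.79 FPKM in TNF-α. Most of this sum was CD14, at 0.660, 0.825 and 0.759 FPKM in NC and 0.528, 1.55 and 1.20 FPKM in TNF-α. CSF1R had 30 to 56 reads in NC and 12 to 20 reads in TNF-α.

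CTSS was the cathepsin with the largest difference between the groups. The gene (ENSG00000163131) lies on the minus strand of GRCh38 at chr1:150730196-150765957, has a merged exon length of 4228 bases, and shares no exonic base with another annotated gene. In NC replicates 1, 2 and 3 its level was 0.471, 0.361 and 0.442 FPKM, from 72, 50 and 60 reads. In TNF-α replicates 1, 2 and 3 it was 5.95, 5.12 and 6.26 FPKM, from 808, 561 and 643 reads. All 3 TNF-α libraries were high, all 3 NC libraries were low, and the groups did not overlap. The mean level was 0.425 ± 0.0573 FPKM in NC and 5.78 ± 0.591 FPKM in TNF-α (SD, n = 3 each), a ratio of 13.6. On the log2(FPKM + 1) scale, which understates the change of a gene this low, the difference was 2.25 with a standard error of 0.12. In the ranking of all 12136 genes tested by the size of their rise, CTSS stood at place 31. None of the 3 NC libraries reached 1 FPKM, so CTSS passed the filter (at least 1 FPKM in 3 libraries) through the TNF-α libraries alone, and any gene that did so had to differ. In bulk RNA, a smaller number of cells that express a gene and a smaller amount of its RNA per cell cannot be told apart.

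The size of the CTSS difference depended on the scale. Against the NC mean, the FPKM ratios of TNF-α replicates 1, 2 and 3 were 14.0, 12.1 and 14.8. On the TPM scale the same ratios were 13.7, 6.78 and 9.42, so the ratio of replicate 1 hardly moved and those of replicates 2 and 3 became smaller. As TPM the mean was 1.63 ± 0.207 in NC and 16.2 ± 5.68 in TNF-α, a ratio of 9.97. Without TNF-α replicates 2 and 3 the log2 difference was 2.29 (SE 0.14), and after a correction for GC content and gene length it was 2.39 (SE 0.12).

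**Figure D1:**
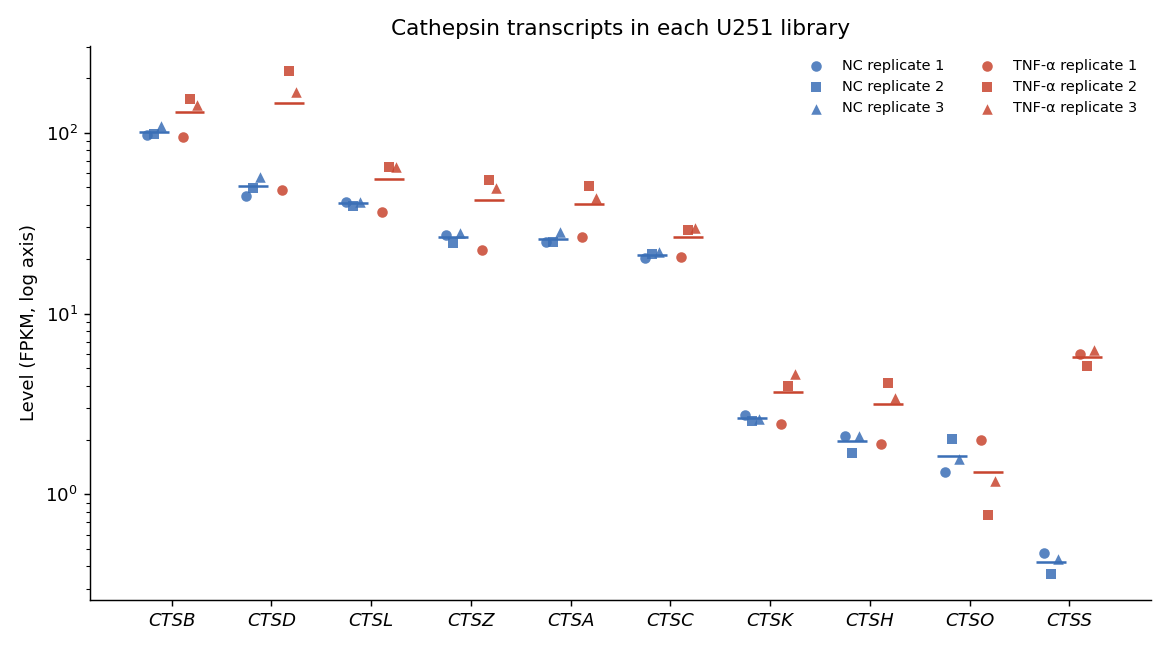
Level of the 10 cathepsin genes in each library, in FPKM on a log axis, with the genes ordered by their NC mean. Symbols stand for replicates, blue for NC and red for TNF-α, and horizontal lines for group means. The 3 CTSS points of TNF-α lie at 5.12 to 6.26 FPKM, above the 0.361 to 0.471 FPKM of NC, while for the other 9 genes TNF-α replicate 1 lies near NC.

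CTSK, the cathepsin gene next to CTSS on the chromosome, had groups that overlapped. The gene encodes the collagen-degrading cathepsin best known from osteoclasts, and lies at chr1:150796208-150808323 on the same strand, 30250 bases from CTSS. Its level was 2.74, 2.55 and 2.61 FPKM in NC and 2.44, 3.97 and 4.65 FPKM in TNF-α. Replicate 1 of TNF-α was below every NC library and replicates 2 and 3 were above, so the groups overlapped. The log2 difference was 0.34 (SE 0.20) on the FPKM scale and -0.063 on the TPM scale, so its direction turned with the scaling. The difference between both genes was not tested, as CTSS had been picked for its size.

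Of the 10 cathepsins, 1 passed the threshold (limma on log2(FPKM + 1), Benjamini-Hochberg adjusted p under 0.05 over all 12136 genes), and this was CTSS. Among all genes tested the share past the threshold was 1.01%, and 0.717% passed with a higher level in TNF-α. The groups did not overlap for 1 of the 10 cathepsins, again CTSS, and for 30.1% of all genes tested. Since the genes were chosen with this contrast known, nothing is read from these counts. Without TNF-α replicate 1 all 10 cathepsins passed, but so did 79.4% of all genes tested. The median log2 difference was 0.41 over the 10 cathepsins, 0.38 over the 9 without CTSS and 0.043 over all genes tested. Over the same 9 genes the median was -0.063 as TPM, where the median of all genes was -0.42, and -0.054 without TNF-α replicates 2 and 3.

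CTSD, the main aspartic endopeptidase of the lysosome, had the next largest log2 difference after CTSS on the FPKM scale, but not after the GC content and length correction, where CTSD was at 0.61 and CTSC at 0.71. Its level was 45.0, 49.7 and 57.1 FPKM in NC and 48.5, 219 and 169 FPKM in TNF-α. TNF-α replicates 2 and 3 were high, but replicate 1 lay inside the NC range, and the groups overlapped. The mean was 50.6 ± 6.11 FPKM in NC and 146 ± 87.9 FPKM in TNF-α (SD, n = 3 each), and the log2 difference was 1.26 (SE 0.55). As TPM, replicates 2 and 3 were still 2.44 and 2.14 times the NC mean, while replicate 1 was 0.937 times it. With replicate 1 as the only TNF-α library the log2 difference was -0.054. The gene lies at chr11:1752752-1764573 on the minus strand, and 52.7% of its exonic bases are shared with AC068580.3 on the opposite strand and AC068580.4 on the same strand. These had 17 to 49 and 2 to 20 reads per library, against 4868 to 17779 for CTSD.

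CTSA, the serine carboxypeptidase that protects lysosomal beta-galactosidase and neuraminidase, was at 24.7, 24.9 and 28.2 FPKM in NC. In TNF-α it was at 26.4, 50.8 and 43.6 FPKM. Only replicates 2 and 3 exceeded the NC range, with a log2 difference of 0.57 (SE 0.25). As TPM these 2 libraries were 1.10 and 1.07 times the NC mean, close to the highest NC library at 1.06 times. The gene lies at chr20:45890144-45898820, and 28.5% of its exonic bases are shared with genes on the opposite strand. The use of strand in counting is not given in the sources used here, so reads of overlapping genes cannot be separated by strand.

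The endopeptidases CTSB and CTSL were among the most abundant cathepsins in NC. CTSB, which also acts as an exopeptidase, was at 97.5, 97.9 and 108.6 FPKM in NC and 94.7, 153 and 142 FPKM in TNF-α. CTSL was at 41.4, 39.3 and 41.7 FPKM in NC and 36.3, 65.1 and 64.5 FPKM in TNF-α. For both genes TNF-α replicate 1 was below every NC library and replicates 2 and 3 were above every one, so neither gene separated the groups. The log2 difference was 0.33 (SE 0.22) for CTSB and 0.38 (SE 0.25) for CTSL. The direction of both turned with the scaling, to -0.17 and -0.11 as TPM and to -0.25 and -0.083 after quantile normalization.

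The exopeptidases CTSC, CTSH and CTSZ showed the same division among the TNF-α libraries. CTSC, the dipeptidyl peptidase that activates serine proteases of immune cell granules, was at 20.3, 21.3 and 21.8 FPKM in NC and 20.6, 29.04 and 29.9 FPKM in TNF-α. CTSZ, a carboxypeptidase also called cathepsin X, was at 27.2, 24.6 and 28.0 FPKM in NC and 22.4, 55.0 and 49.6 FPKM in TNF-α. TNF-α replicate 1 lay within the NC range for CTSC and below it for CTSZ. CTSH, an aminopeptidase, was near 2 FPKM, at 2.10, 1.70 and 2.11 in NC and 1.91, 4.14 and 3.40 in TNF-α. The log2 differences were 0.30 (SE 0.18) for CTSC, 0.45 (SE 0.23) for CTSH and 0.55 (SE 0.34) for CTSZ. On the TPM scale CTSC turned to -0.19, and CTSZ did so after the GC content and length correction, at -0.089.

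CTSO, a less studied papain-family cathepsin, was the 1 gene of the 10 whose mean FPKM was lower in TNF-α. Its level was 1.33, 2.02 and 1.57 FPKM in NC, from 142 to 196 reads, and 2.01, 0.771 and 1.19 FPKM in TNF-α, from 191, 59 and 85 reads. TNF-α replicate 1 was within the NC range and replicates 2 and 3 were below it. The log2 difference was -0.21 (SE 0.22), and it was 0.20 with replicate 1 as the only TNF-α library. As TPM, replicates 2 and 3 were 0.264 and 0.460 times the NC mean. On that scale the means of CTSB, CTSC, CTSK and CTSL were lower in TNF-α as well.

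Read across the 10 genes, the 3 TNF-α libraries did not behave alike. In FPKM, replicate 1 was above the NC range for 1 cathepsin (CTSS), within it for 5 and below it for 4. Replicates 2 and 3 were each above the NC range for 9 and below it for 1 (CTSO). Among all genes tested, 30.5, 49.3 and 48.5% were above the NC range in replicates 1, 2 and 3, and 34.3, 43.5 and 43.6% were below it. As TPM, replicate 2 was above the NC range for 5 cathepsins and below it for 5, and replicate 3 was above for 6, within for 1 and below for 3. The corresponding shares of all genes as TPM, for replicates 1, 2 and 3, were 25.3, 23.1 and 24.1% above and 40.5, 69.6 and 67.1% below. CTSS, CTSD, CTSA, CTSH and CTSZ were above the NC range in both of these libraries on both scales. CTSB, CTSC and CTSO were below it in both as TPM.

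**Figure D2:**
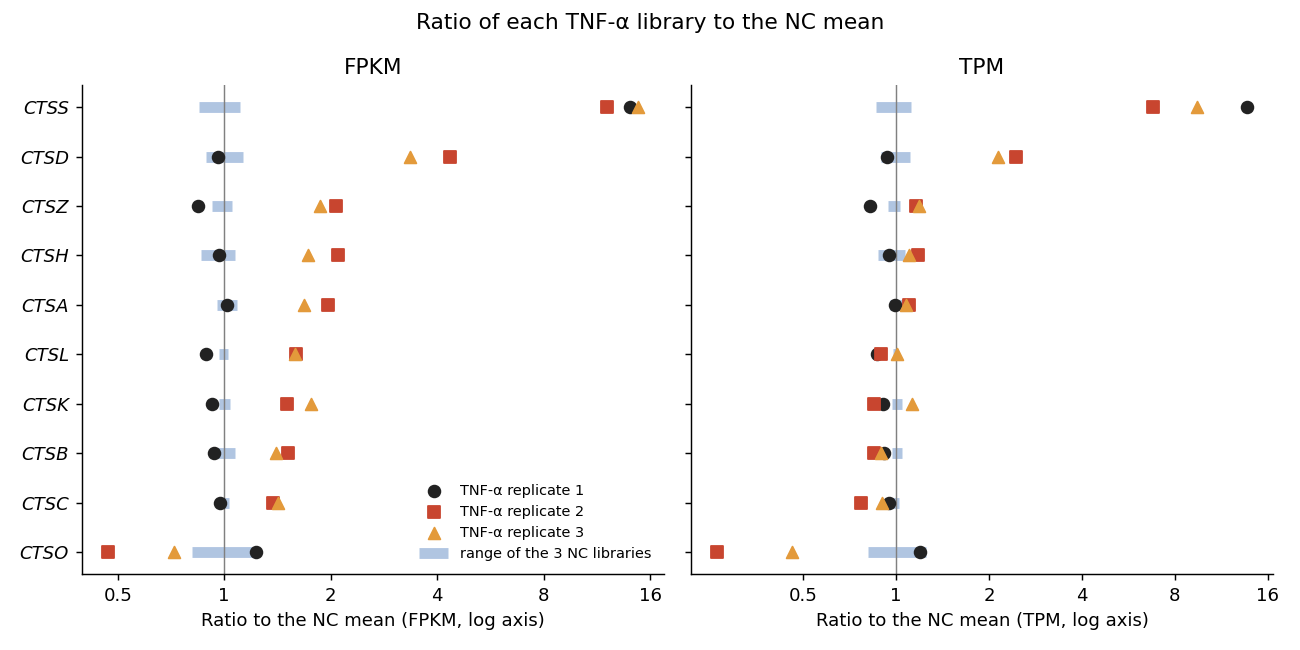
Ratio of each TNF-α library to the NC mean for the 10 cathepsins, from FPKM (left) and from TPM (right), on log axes. Symbols stand for the 3 TNF-α libraries and blue bars for the range of the 3 NC libraries. CTSS lies at 6.78 or more in every library on both scales, whereas replicates 2 and 3 move towards or below 1 from the left to the right panel for most other genes.

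Among the 9 cathepsins other than CTSS, the ratios in TNF-α replicates 2 and 3 tended to be higher where GC content was higher. GC content was taken as the mean over the annotated transcripts of a gene. It was lowest in CTSS (39.2%) and CTSO (40.2%) and highest in CTSZ (61.1%) and CTSD (63.2%). Over the 9 genes without CTSS, the Spearman correlation of GC content with the log2 FPKM ratio to the NC mean was -0.37, 0.87 and 0.68 for TNF-α replicates 1, 2 and 3. With gene length the correlation was 0.53, -0.033 and -0.43. These correlations are descriptions over 9 genes measured in the same libraries. For the correction, each library was expressed as its deviation from the mean of all libraries, gene by gene. GC content and length together took up a share of the variance of this deviation. As every library enters that mean, the share does not give the GC dependence of a library by itself. It was 29.3, 32.4 and 20.9% in NC and 29.4, 35.5 and 34.3% in TNF-α replicates 1, 2 and 3. CTSS, with the lowest GC content, was above NC in all 3 libraries. The correction for GC content and length moved the log2 difference from 1.26 to 0.61 for CTSD, from 0.57 to 0.34 for CTSA, from 0.38 to 0.092 for CTSL and from 0.34 to 0.064 for CTSK. For CTSC it went the other way, from 0.30 to 0.71. Over the 9 genes the median went from 0.38 to 0.22, and over all genes from 0.043 to 0.0041. The part of composition in these differences was not tested further.

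**Figure D3:**
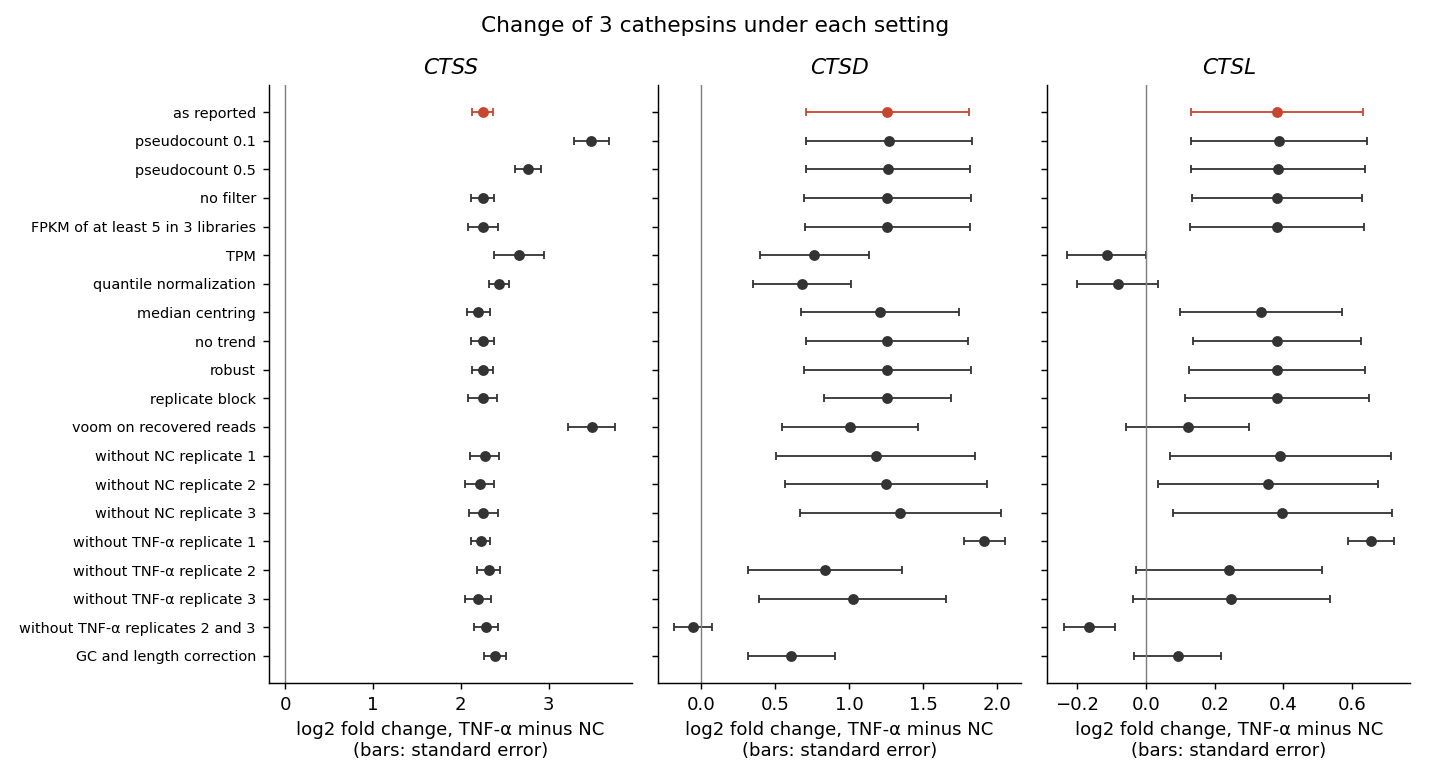
Log2 fold change, TNF-α minus NC, of CTSS, CTSD and CTSL as reported (red) and under each alternative way of processing (black), with bars for the standard error. Each panel has its own axis. CTSS lies at 2.20 to 3.49, CTSD reaches -0.054 without TNF-α replicates 2 and 3, and CTSL falls below 0 as TPM, after quantile normalization and without those libraries.

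The order of the cathepsins in NC was CTSB, CTSD, CTSL, CTSZ, CTSA, CTSC, CTSK, CTSH, CTSO and CTSS, from the highest mean FPKM to the lowest. The NC ranges of CTSZ and CTSA overlapped, as did those of CTSH and CTSO, and all other neighbours in the order were separate. CTSB had a higher NC mean than 97.2% of the genes tested, and CTSS a higher one than 0.14% of them. In every NC library CTSS was the lowest of the 10, and in every TNF-α library it was at place 7, above CTSK, CTSH and CTSO. CTSD passed CTSB to become the highest in TNF-α replicates 2 and 3, but not in replicate 1.

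CTSS was a small part of the cathepsin transcripts. The 10 genes summed to 263, 264 and 292 FPKM in NC and to 261, 587 and 514 FPKM in TNF-α. CTSS made up 0.156 ± 0.0218% of this sum in NC, and 2.28, 0.873 and 1.22% in TNF-α replicates 1, 2 and 3. Set against CTSB, the level of CTSS was 0.368 to 0.483% in NC and 3.34 to 6.28% in TNF-α. CTSD made up 18.5% of the sum in NC and 18.6, 37.4 and 32.9% in TNF-α replicates 1, 2 and 3, while CTSB made up 37.1% in NC and 36.2, 26.1 and 27.6%.

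Promoter sequence was at hand for 6 of the 10 genes (CTSA, CTSC, CTSD, CTSH, CTSL and CTSZ), from RefSeq on GRCh38.p14. The E-box CACGTG is the core of the site bound by the lysosomal regulator TFEB. It was found within 250 bases before the RefSeq start of 2 of these 6, CTSA and CTSD. Of all 35116 promoters of that length, 6.34% held it. Both sequences are shown because they hold this E-box, 5′ to 3′ on the strand of the gene, with the E-box in capitals. They lie at chr20:45891085-45891334 on the plus strand for CTSA and at chr11:1763928-1764177 on the minus strand for CTSD. Both windows lie inside the gene intervals given above, so the RefSeq start is downstream of the outermost GENCODE start.
CTSA: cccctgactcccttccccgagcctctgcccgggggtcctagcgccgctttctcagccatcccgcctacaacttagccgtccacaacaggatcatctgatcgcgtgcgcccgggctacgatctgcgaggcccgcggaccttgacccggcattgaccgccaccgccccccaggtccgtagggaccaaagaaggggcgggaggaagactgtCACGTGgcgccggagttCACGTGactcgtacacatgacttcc
CTSD: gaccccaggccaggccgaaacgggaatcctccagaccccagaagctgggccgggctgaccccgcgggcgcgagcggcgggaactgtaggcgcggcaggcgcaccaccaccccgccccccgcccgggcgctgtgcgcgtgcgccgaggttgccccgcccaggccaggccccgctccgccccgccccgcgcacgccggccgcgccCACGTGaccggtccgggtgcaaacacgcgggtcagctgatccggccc
The E-boxes ended 36 and 19 bases before the start in CTSA and 41 bases before it in CTSD. CACGTG reads the same on both strands. An NF-κB pattern (GGG, any 2 bases, TTTCC), searched on both strands, was in 0 of the 6 and in 1.73% of all promoters. An interferon-response pattern (GAAA, any 2 bases, GAAA) was in 0 of the 6 and in 3.02%. A match describes letters in this window, and its use by a factor was not measured here.

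A list of 12 transcription factors known for CTSS, MHC class II or lysosomal genes had 9 tested genes. Of these, 3 passed the threshold with a higher level in TNF-α and 0 with a lower one. Among all genes tested 1.01% passed, 0.717% upward. The list was drawn up with earlier results of these libraries known, so the count is no independent evidence. RELB, a subunit of the noncanonical NF-κB pathway, was at 6.31, 5.90 and 8.34 FPKM in NC and 46.8, 129.7 and 104.8 FPKM in TNF-α, a log2 change of 3.48 (SE 0.39, limma adjusted p = 0.0185). NFKB2, which encodes its partner, changed by 2.63 (SE 0.29, limma adjusted p = 0.0173), and by 2.01 with TNF-α replicate 1 as the only treated library. IRF1, a transcription factor of interferon responses, was at 4.61, 5.18 and 5.74 FPKM in NC and 11.9, 20.2 and 19.7 FPKM in TNF-α, a change of 1.53 (SE 0.22, limma adjusted p = 0.0429). For all 3, as for CTSS, TNF-α replicate 1 was above every NC library as well, which held for 30.5% of all genes tested. None of the 3 calls held when any 1 NC library, TNF-α replicate 2 or TNF-α replicate 3 was left out, with adjusted p up to 0.151 for RELB, 0.152 for NFKB2 and 0.291 for IRF1 over the alternatives. They were also lost without a filter on low values and with the replicate number as a block. IRF8 had 0 reads in every library. IRF1 shares 22.0% of its exonic bases with genes on the opposite strand.

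Other lysosomal proteases gave no call. Of 12 such genes 8 were tested and 0 passed the threshold in limma, 2 had an unadjusted p under 0.05, and the median log2 difference was 0.18. Among all genes tested, 24.2% had an unadjusted p under 0.05 and 53.0% a log2 difference above 0, and the counts of this and the following lists stand beside these shares. The median of the 8 proteases was -0.027, 0.36 and 0.44 for TNF-α replicates 1, 2 and 3, and -0.056, -0.38 and -0.015 as TPM, so its direction turned with the scaling. For all genes the same medians were -0.0065, 0.076 and 0.052, and -0.039, -0.68 and -0.53 as TPM. LGMN, the asparaginyl endopeptidase that cleaves several procathepsins, had the smallest adjusted p of the list (0.128 in limma). Its level was 12.8, 13.0 and 13.1 FPKM in NC and 18.5, 27.4 and 26.8 FPKM in TNF-α, so the groups did not overlap, with a log2 difference of 0.83 (SE 0.18). It passed the threshold with replicate 1 as the only TNF-α library, at 0.48 (limma adjusted p = 0.0161), a setting in which 6.03% of all genes passed. It also passed after the GC content and length correction, at 0.55 (limma adjusted p = 0.0329), where 2.12% did. The cathepsin gene CTSF was at 3.26, 2.51 and 3.47 FPKM in NC and 3.20, 7.94 and 7.11 FPKM in TNF-α. CTSV, the closest relative of CTSL, was at 0.927 to 1.05 FPKM in NC and 0.563 to 1.81 FPKM in TNF-α. CTSW had 9 to 33 reads per library, CTSE 6 to 20 and CTSG 0.

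Of 17 cathepsin inhibitors, most of them cystatins and serpins, 2 were tested and 0 passed, with 1 at an unadjusted p under 0.05. CST3, cystatin C, the main secreted inhibitor, was at 15.7, 16.5 and 18.3 FPKM in NC and 18.1, 64.6 and 52.2 FPKM in TNF-α, a log2 difference of 1.19 (SE 0.46, limma adjusted p = 0.195). CSTB, the cytosolic cystatin B, was at 12.1 to 13.0 FPKM in NC and at 13.0, 28.9 and 24.2 FPKM in TNF-α. In both, replicates 2 and 3 were high and replicate 1 lay within the NC range, the division seen in CTSD.

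The enzymes and membrane proteins that share the lysosome with the cathepsins also gave no call. Of 29 tested lysosomal hydrolases 22 had a log2 difference above 0 and 0 passed in limma, with a median of 0.31 and 8 at an unadjusted p under 0.05. MAN2B1, lysosomal alpha-mannosidase, had the smallest unadjusted p of that list, at 0.51 (SE 0.16), and was at 0.25 with TNF-α replicate 1 as the only treated library and at 0.038 as TPM. Its adjusted p of 0.195 in limma was shared with other genes of the list in both directions. MAN2B1 shares 21.2% of its exonic bases with genes on the same strand. Of 26 tested genes of the lysosomal membrane and its proton pump 20 were above 0 and 0 passed, with a median of 0.28 and 3 at an unadjusted p under 0.05. ATP6V1C1, a subunit of that pump, had the smallest unadjusted p of the list and was at -0.45 (SE 0.17, limma adjusted p = 0.195). The adjusted p was tied with 4 further pump subunits, ATP6V1A at -0.58, ATP6V1D at 0.53, ATP6V1E1 at 0.84 and ATP6V0E1 at 0.89. Over the hydrolases, the median difference from the NC mean was -0.045, 0.52 and 0.45 for TNF-α replicates 1, 2 and 3, and as TPM it was -0.079, -0.16 and -0.078. Over the membrane genes it was -0.030, 0.48 and 0.37, and as TPM -0.064, -0.31 and -0.23. The direction of both lists thus turned with the scaling in replicates 2 and 3. As TPM the medians of all genes tested were -0.039, -0.68 and -0.53, below those of both lists in replicates 2 and 3.

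Of the 9 genes that sort procathepsins to the lysosome all were tested and 0 passed, with a median of -0.027 and 1 at an unadjusted p under 0.05. Their median was -0.028, 0.11 and -0.081 for TNF-α replicates 1, 2 and 3, and -0.064, -0.69 and -0.71 as TPM. The mannose 6-phosphate receptors IGF2R and M6PR were at -0.89 (SE 0.40) and -0.51 (SE 0.25), while 4 of the 9 genes were above 0. For both receptors TNF-α replicate 1 lay within the NC range and replicates 2 and 3 were below it. SORT1, the receptor sortilin, was at 29.8, 29.4 and 29.98 FPKM in NC and 23.1, 14.5 and 13.5 FPKM in TNF-α. All 3 TNF-α libraries were below NC, with a log2 difference of -0.80 (SE 0.22, limma adjusted p = 0.185). With replicate 1 as the only TNF-α library SORT1 passed the threshold, at -0.35 (limma adjusted p = 0.0424).

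**Figure D4:**
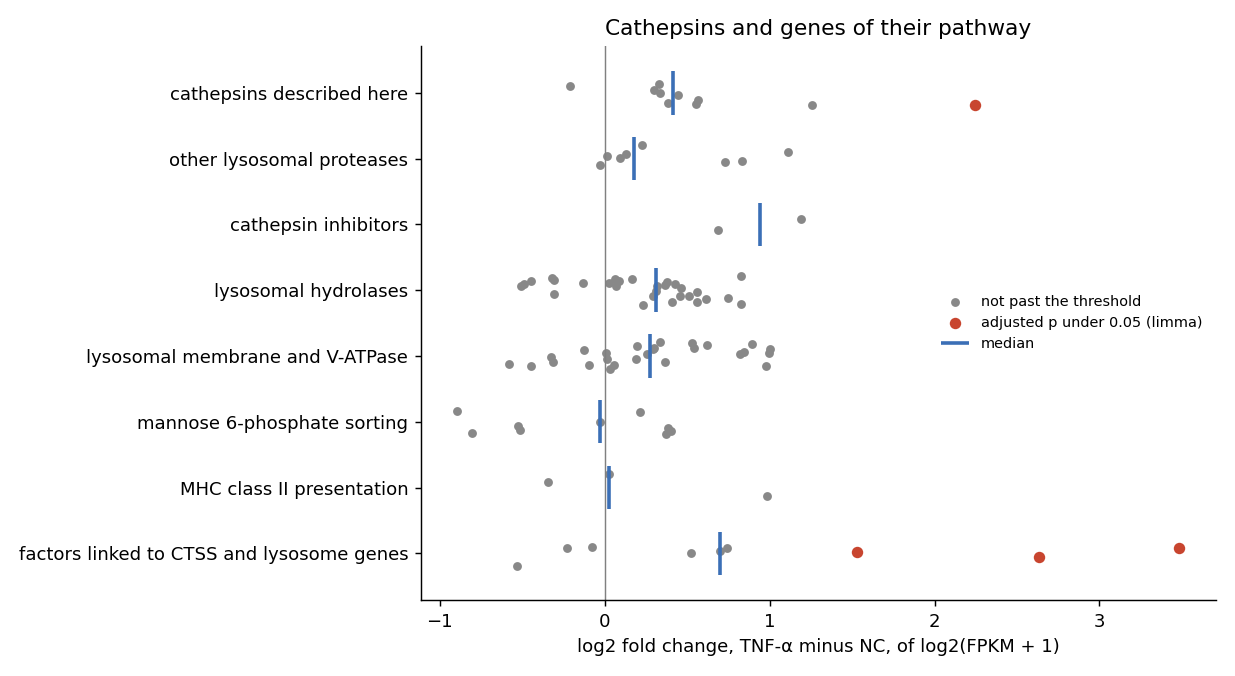
Log2 fold change, TNF-α minus NC, of log2(FPKM + 1) for each tested gene of the 10 cathepsins and of 7 lists of related genes. Points are genes, red where the adjusted p was under 0.05, and blue lines are medians. Outside the cathepsins, the red points are RELB, NFKB2 and IRF1, and the medians of the lists lie between -0.027 and 0.94.

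In a list for the MHC class II pathway, in which CTSS acts in antigen-presenting cells, the HLA genes, CD74 and CIITA had few reads. Of 17 genes 3 were tested and 0 passed, with 2 at an unadjusted p under 0.05. HLA-DRA, HLA-DRB1, HLA-DRB5, HLA-DQA1, HLA-DQB1 and HLA-DOA were listed at 0 reads in all 6 libraries. Whether a listed 0 reflects counting was not tested. GALC, a lysosomal enzyme gene, was also at 0 reads in 5 of 6 libraries, and ATP6V0C, a subunit of the proton pump, was at 16 to 35. CD74, the invariant chain that CTSS trims, had 1, 9 and 10 reads in NC and 12, 26 and 19 reads in TNF-α. CIITA, the master activator of class II genes, had 45 to 64 reads in NC and 12 to 48 reads in TNF-α. RFXANK, a subunit of the complex that binds class II promoters, had the smallest unadjusted p (adjusted p = 0.195 in limma), with 10.7, 10.1 and 10.6 FPKM in NC and 11.1, 32.3 and 27.6 FPKM in TNF-α. It shares 23.3% of its exonic bases with genes on the opposite strand. RFXAP, of the same complex, had the same adjusted p and lay the other way. It was at 3.05, 2.88 and 2.78 FPKM in NC and 2.35, 1.67 and 2.23 FPKM in TNF-α. RFX5, the remaining tested gene, was at 16.3, 16.2 and 18.6 FPKM in NC and 23.9, 14.0 and 15.5 FPKM in TNF-α.

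The genes whose pattern over the 6 libraries was most like that of CTSS were found by the root mean square difference of log2(FPKM + 1) after subtraction of the NC mean. The 5 nearest genes were IRAK2 (0.12), CD83 (0.16), C3 (0.16), HBEGF (0.20) and TNFRSF9 (0.21). This scale understates the change of a gene as low as CTSS, so nearness on it is not an equal ratio of FPKM. The means in NC and TNF-α were 5.51 and 30.1 FPKM for IRAK2, against 0.425 and 5.78 FPKM for CTSS. IRAK2, the nearest, was at 5.63, 5.56 and 5.35 FPKM in NC and 35.3, 26.8 and 28.1 FPKM in TNF-α. TNFRSF9 was the one nearest to CTSS in level, with a mean of 0.360 ± 0.0758 FPKM in NC and 6.33 ± 1.28 FPKM in TNF-α (SD, n = 3 each). For CTSO, the 5 nearest genes were AC110079.1 (0.053), GATA6 (0.069), GLUD1P3 (0.070), PCDHB16 (0.074) and NOD1 (0.076). NOD1 was at 2.58, 3.06 and 2.59 FPKM in NC and 2.97, 1.53 and 2.00 FPKM in TNF-α, with replicates 2 and 3 low and replicate 1 inside the NC range.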

How the data were processed

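Poly(A) RNA of 6 libraries was sequenced, 3 NC and 3 TNF-α, with group and replicate taken from the sample titles. The authors deposited FPKM per gene and library, neither pooled nor log transformed, with gene lengths. The submitters' processing notes name HISAT2 2.0.5, StringTie 1.3.3b, featureCounts 1.5.0, DESeq2, edgeR and GATK 3.7, without the role of each, and the use of strand in counting is not given in the sources used here. All 58735 genes matched GENCODE release 29 on GRCh38, and all deposited gene lengths equalled its merged exon lengths. Another 6 columns, whose names fit none of these libraries, were left out.

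FPKM multiplied by gene length gave whole reads (tolerance 0.01) for 100% of the values. As FPKM is not a count, no count model was the main test. Genes with at least 1 FPKM in at least 3 libraries (12136) were tested with limma 3.58.1 in R 4.3.3 on log2(FPKM + 1), with an intensity trend, without covariates, two-sided, and with Benjamini-Hochberg adjustment over all of them at 0.05. TPM was FPKM divided by its library sum. The procedure was tested on simulated data with known changes. With 3 libraries per group, p-values rest on the spread among these libraries, and read numbers carry counting error only.

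The cathepsins and all gene lists were chosen with earlier results of these data known, and the promoter motifs too. Beside the 10 cathepsins, the text names from each list up to 5 genes past the threshold with the largest change or, where none passed, the gene with the smallest adjusted p, ties being broken by the unadjusted p. It further names CTSF, CTSV, CTSW, CTSE, CTSG, CIITA and CD74 by rule, and the 5 genes nearest in pattern to CTSS and to CTSO. CSTB, VIM, CD14, CSF1R, IRF8, IGF2R, M6PR, RFXAP, RFX5 and GALC were named after their values were seen. So were the other pump subunits and the markers and class II genes at 0 reads. The alternatives were other pseudocounts (0.1 and 0.5), filters, scalings and variance models, voom on the recovered reads, a replicate block, and the omission of libraries. A correction for GC content and gene length by splines was added after seeing the data.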

Additional observations from a re-analysis of the deposited data

How the results depend on the processing

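CTSS had log2 differences of 2.20 to 3.49 over the 19 alternatives. Since it was chosen on these values and passed the filter through the TNF-α libraries alone, its side of the threshold is no support. Leaving out 1 library gave 2.20 to 2.32. The number of cathepsins past the threshold was 1 under 18 of the 19, and 10 without TNF-α replicate 1, where 79.4% of all genes passed. An FPKM minimum of 5 in 3 libraries left CTSH, CTSK and CTSO untested. Directions turned for CTSB as TPM (-0.17), after quantile normalization (-0.25) and without TNF-α replicates 2 and 3 (-0.095), for CTSC as TPM (-0.19) and without these libraries (-0.033), for CTSK likewise (-0.063 and -0.079), and for CTSL in all 3 settings (-0.11, -0.083 and -0.17). Without these libraries the direction also turned for CTSD (-0.054), CTSH (-0.027), CTSO (0.20) and CTSZ (-0.24), and CTSZ turned after the GC content and length correction (-0.089). The cause was not tested. With 1 TNF-α library left, it was assumed to vary as the NC libraries do.

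Over all genes, 123 passed as reported, 58 without a filter, 79 with the stricter filter, 58 as TPM, 185 after quantile normalization, 77 with voom, 732 without TNF-α replicates 2 and 3, 257 after the GC content and length correction, and 10 to 9630 when 1 library was left out, the highest without TNF-α replicate 1 and the lowest without NC replicate 2. As TPM the median of all genes was -0.42. Leaving out 1 library gave 0 to 5 calls among the other lysosomal proteases, 0 to 2 among the inhibitors, 0 to 24 among the hydrolases, 0 to 21 among the membrane genes, 0 to 8 among the sorting genes, 0 to 2 among the class II genes and 0 to 7 among the factors, each highest without TNF-α replicate 1. Without TNF-α replicates 2 and 3 there was 1 call in each of the proteases (LGMN), the sorting genes (SORT1) and the class II genes (RFX5), and after the GC content and length correction 1 in the proteases (LGMN). The factors gave 0 calls without a filter.

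Between libraries with the same replicate number, deviations from the group means had r = -0.01, -0.18 and 0.12. No such pair was the best match in both directions, so the numbers were not taken to pair the samples. With 3 libraries per group this check cannot exclude a pairing. With the replicate block 24 genes passed, and the factors gave 0 calls. Levels near 1 FPKM, as for CTSO, rested on 59 to 196 reads, which limits their precision.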
